A study of Bos taurus with 8 samples.

Results

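The genes of 4 name families were followed here in bovine articular chondrocytes. These are the matrix metalloproteinases (MMPs), the ADAMTS proteases, the ADAMTS-like (ADAMTSL) proteins and the tissue inhibitors of metalloproteinases (TIMPs). Genes were taken as members when their symbol was MMP, TIMP, ADAMTS or ADAMTSL followed by a number and nothing more, which gave 46 of the 24596 genes in the count table, 19 of them MMPs, 19 ADAMTS, 5 ADAMTSL and 3 TIMPs. *Timp1*, *Mmp10* and *Mmp12* were not analysed here. The cells came from knee joints of wild-type calves 1 to 2 weeks old. Chondrocytes of the superficial zone (SZCs) and of the deep zone (DZCs) were released from cartilage slices of the same cores with pronase and collagenase D. They were then grown for 3 days in medium with fetal bovine serum, without any other treatment, before RNA was sequenced. There were 2 libraries from each zone, so each level refers to cells in culture and not to intact cartilage. Slices were collected by joint, and it is not stated whether libraries of the same number share a joint.

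Cartilage is mostly collagen fibrils and aggrecan, and chondrocytes both build this matrix and make the enzymes that cut it. MMPs are zinc proteases made as inactive proenzymes. The collagenases among them cut fibrillar collagen, the gelatinases cut denatured collagen, the stromelysins cut proteoglycans and activate other MMPs, and the membrane-type MMPs act at the cell surface. ADAMTS proteases are secreted zinc proteases with thrombospondin repeats. Some of them are aggrecanases, which cut the aggrecan core protein, and others remove the amino propeptide of fibrillar procollagens. ADAMTSL proteins share the repeats but have no protease domain, and several bind fibrillin microfibrils. TIMPs bind the active site of MMPs, and Timp3, which is held in the matrix, also inhibits aggrecanases.

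The libraries held between 19918970 and 21890549 counts, and the smallest level treated as shown, 3 counts, lies between 0.129 and 0.187 CPM after TMM scaling (trimmed mean of *M* values, which corrects CPM, the counts scaled to a common library size, for composition). All 10 chondrocyte markers were counted in every library. Their sum was 132668 and 132784 CPM in SZCs and 519151 and 201848 CPM in DZCs, with a median log2 fold change of -1.11. *Col2a1* alone was at 64981 and 55516 CPM in SZCs and at 333205 and 118929 CPM in DZCs. *Acan*, *Sox9* and *Hapln1* overlapped between the zones, with log2 fold changes of -0.58, -0.05 and -0.06. Of the 10, 3 (*Matn3*, *Cnmd* and *Chad*) were called higher in DZCs (0.700% of all genes), and DESeq2 called 5 (3.09% of all genes). All 6 superficial zone markers, among them *Prg4*, were called higher in SZCs (2.23% of all genes), and DESeq2 called 5. Their summed level was 4801 and 3623 CPM in SZCs against 77.9 and 165 CPM in DZCs. The study named these genes as higher in SZCs from the same libraries, so their calls are no independent check of the zones. The 8 markers of synovial or fibrous fibroblasts, several of which cultured chondrocytes also express, summed to 20151 and 27195 CPM in SZCs and to 4430 and 14131 CPM in DZCs. Most of this was *Col1a1*, *Col1a2* and *Col3a1*, and *Prg4*, also in this list, was the only 1 called (2.23% of all genes). *Col1a2*, *Col3a1*, *Pdgfra* and *Cd34* were higher in SZCs without overlap, and *Col1a1* and *Thy1* overlapped. *Pdpn* was higher in DZCs, at 1103 and 762 CPM against 492 and 453 CPM. The 7 endothelial markers summed to 96.3 and 79.4 CPM in SZCs and to 31.4 and 28.5 CPM in DZCs, mostly from *Erg*, which was called higher in SZCs (2.23% of all genes). The defining markers *Pecam1* and *Cdh5* had at most 45 and 10 counts in a library. *Kdr* was at 1.59 and 3.58 CPM in SZCs and at 0 and 0.672 CPM in DZCs. *Vwf* went the other way, at 2.23 and 3.23 CPM in SZCs and 3.36 and 4.48 CPM in DZCs. *Tek* and *Emcn* overlapped between the zones. The part of these lists in the differences below was not tested. In such bulk RNA, fewer cells of a type and less RNA per cell cannot be told apart.

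After a filter on low counts, 34 of the 46 members were tested among 12857 genes. The zones were compared by edgeR's exact test with Benjamini–Hochberg adjustment over all genes tested (false discovery rate, FDR), and an FDR below 0.05 counted as a call. *Mmp23*, *Adamtsl3* and *Adamts19* were higher in SZCs and *Mmp28* was higher in DZCs. These are 4 calls among 34 members, while 2.93% of all tested genes were called. In the SZC direction 3 members were called (2.23% of all genes) and in the DZC direction 1 member (0.700% of all genes). The median log2 fold change of the tested members was 0.47, against -0.04 over all tested genes, with 22 members above 0 and 12 below. edgeR's quasi-likelihood test on the same counts called 0 of the 34 members and 0 of all genes, with 14 of the members and 1126 of the genes (8.76%) at an unadjusted p below 0.05. The exact test put 13 members below that limit (9.09% of all genes). DESeq2 called 3 members, *Mmp23*, *Adamtsl3* and *Mmp28* (3.09% of all genes). Below, logFC stands for the log2 fold change of SZCs over DZCs with its standard error (SE), and calls and FDR values are those of edgeR's exact test unless another test is named.

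**Figure D1:**
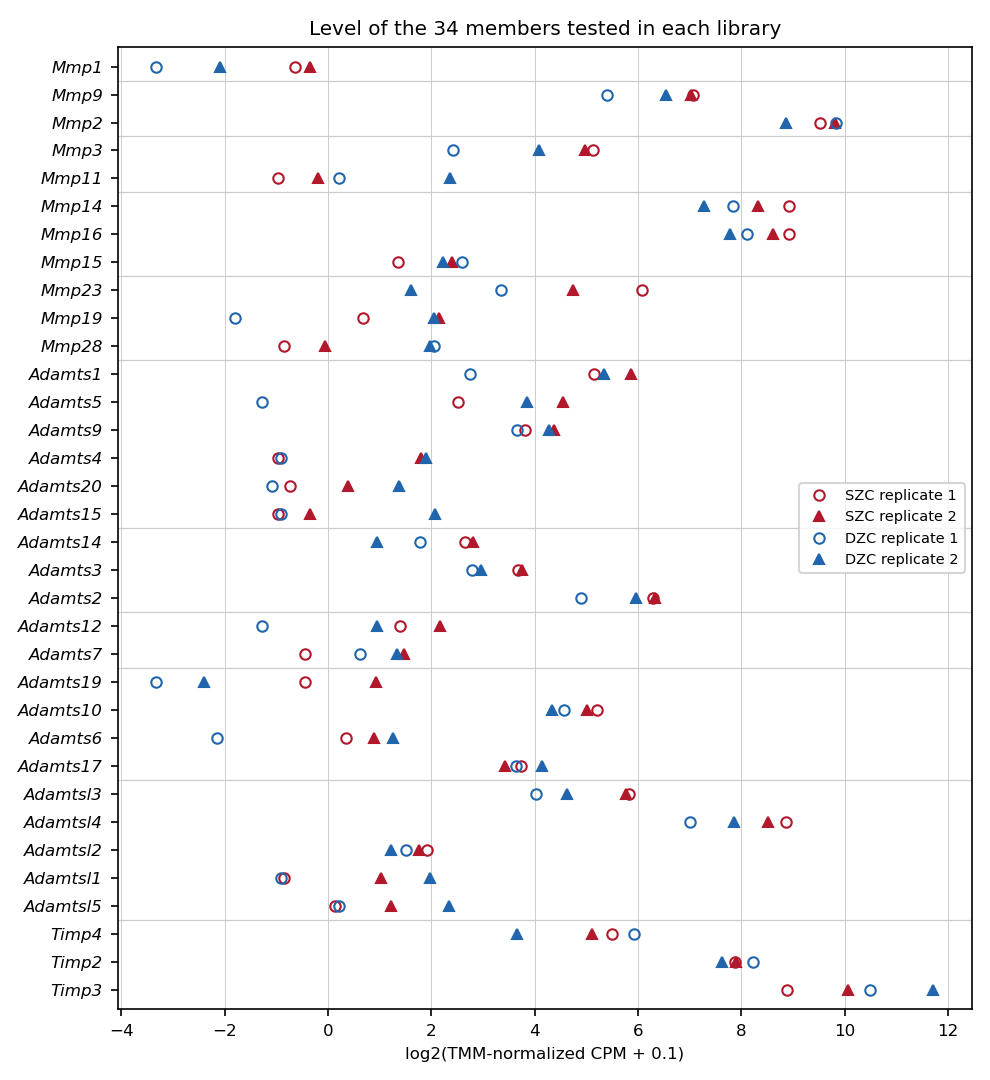
Level of each of the 34 tested members in the 4 libraries, as log2(TMM-normalized CPM + 0.1), with members ordered by role and grey lines between roles. Red marks SZCs, blue marks DZCs, open circles replicate 1 and filled triangles replicate 2. *Mmp23*, *Mmp3*, *Adamtsl3* and *Adamtsl4* have both SZC libraries to the right of both DZC libraries, while *Mmp28*, *Mmp11* and *Timp3* have the opposite order. Levels of different genes are not adjusted for transcript length.

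*Mmp23* (ENSBTAG00000010732) encodes a membrane-anchored MMP of unusual structure that lacks the hemopexin domain of most MMPs. It had 1480 and 616 counts in SZCs against 163 and 66 in DZCs, which is 67.2 and 26.5 CPM against 10.1 and 2.96 CPM. Both SZC values lay above both DZC values, although replicates of a zone differed by 2.53-fold in SZCs and 3.43-fold in DZCs. The logFC was 2.84 ± 0.72 (SE, FDR 0.0128), a 7.17-fold difference. The difference passed in 7 of the 8 alternative analyses that use all libraries, DESeq2 (FDR 0.00171) included. Without SZC replicate 1 the logFC was 2.02 (FDR 0.595), and without DZC replicate 1 it was 3.99.

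*Adamtsl3* (ENSBTAG00000004645), also known as punctin-2, is a secreted matrix protein without protease activity. Its level was 56.6 and 54.5 CPM in SZCs and 16.1 and 24.7 CPM in DZCs, so the zones did not overlap and the SZC libraries differed by only 1.04-fold. The logFC was 1.45 ± 0.38 (SE, FDR 0.00990), or 2.72-fold. When libraries were scaled by their totals instead of by TMM, the logFC was 1.69 with an FDR of 0.0546. The gene passed in 6 of the 8 alternatives.

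*Adamts19* (ENSBTAG00000016145) encodes an ADAMTS protease whose substrates are poorly known. It had 14 and 42 counts in SZCs against 0 and 2 in DZCs. The 56 counts in SZCs against 2 in DZCs give a 23.8-fold ratio of rates, with an exact 95% counting interval from 6.28 to 201 that leaves out the variation between libraries. edgeR's exact test gave an FDR of 0.0189, whereas the FDR was 0.144 in DESeq2. It passed in 4 of the 8 alternatives, and the stricter filter on CPM left it out. The gene is therefore seen in SZCs at a low level, from 0.636 to 1.81 CPM, and is at or below 3 counts in DZCs.

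*Mmp28* (ENSBTAG00000006086) encodes epilysin, a secreted MMP known from skin and other epithelia and also found in cartilage. It went the other way, with 0.454 and 0.862 CPM in SZCs (10 and 20 counts) and 4.04 and 3.85 CPM in DZCs (65 and 86 counts). The DZC libraries differed by 1.05-fold. The logFC was -2.57 ± 0.67 (SE, FDR 0.0134), a 5.94-fold difference, and DESeq2 gave an FDR of 0.0202. With scaling by library totals the logFC was -2.26 with an FDR of 0.133, and the gene passed in 5 of the 8 alternatives.

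**Figure D2:**
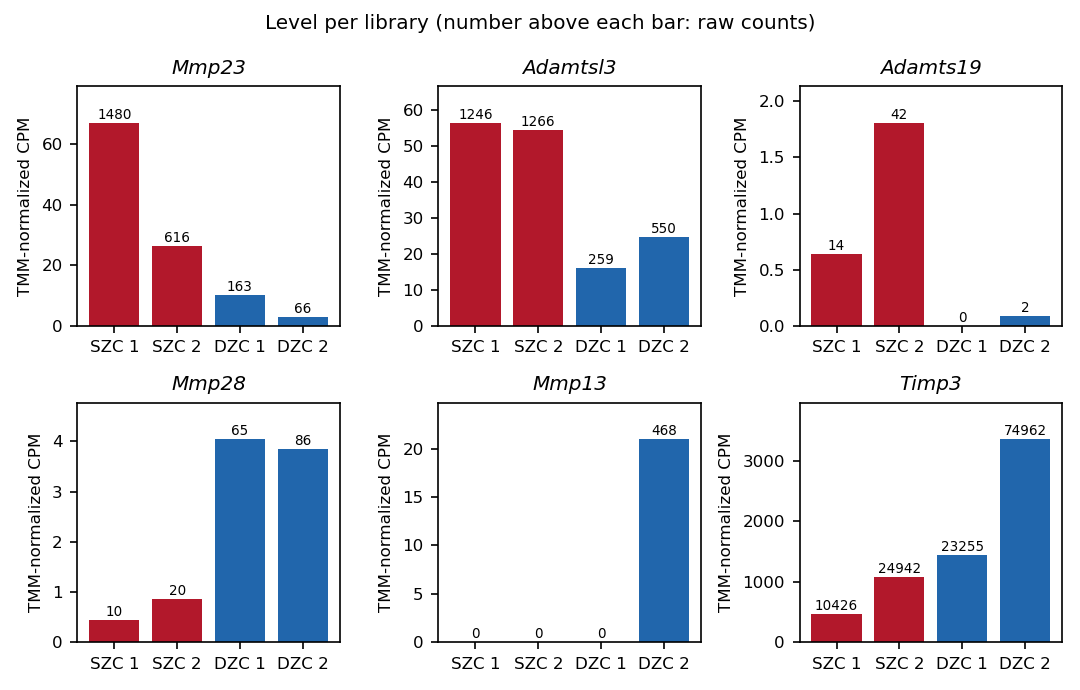
TMM-normalized CPM of the 4 called members, *Mmp23*, *Adamtsl3*, *Adamts19* and *Mmp28*, and of *Mmp13* and *Timp3*, in each library, with axes from 0 and the raw count above each bar. Red bars are SZC libraries and blue bars DZC libraries. *Mmp13* has 468 counts in DZC replicate 2 and 0 counts in the other libraries, and *Timp3* is highest in DZC replicate 2 at 3360 CPM.

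The calls depend on single libraries. Each library was left out in turn and the exact test repeated, with the zone of a single library assumed to vary like the other. Without SZC replicate 1, 0 of the 34 members were called (0.529% of all genes). Without SZC replicate 2, *Mmp23* was called and the other members were not (1.26% of all genes). Without DZC replicate 1, 10 members were called (6.68% of all genes), among them *Mmp23*, *Adamtsl3* and *Mmp28* but not *Adamts19* (FDR 0.0628). The others were *Mmp3*, *Mmp11*, *Mmp14*, *Adamts14*, *Adamts15*, *Timp3* and *Timp4*. Without DZC replicate 2, 14 members were called (21.5% of all genes), the original 4 included, with *Mmp1*, *Mmp3*, *Mmp9*, *Mmp19*, *Adamts1*, *Adamts2*, *Adamts5*, *Adamts6*, *Adamts12* and *Adamtsl4* besides. The SZC libraries were more alike than the DZC libraries. Both fits without a DZC library take the spread from the SZC pair alone, and both without an SZC library take it from the DZC pair alone. With 4 libraries 377 of all genes were called.

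**Figure D3:**
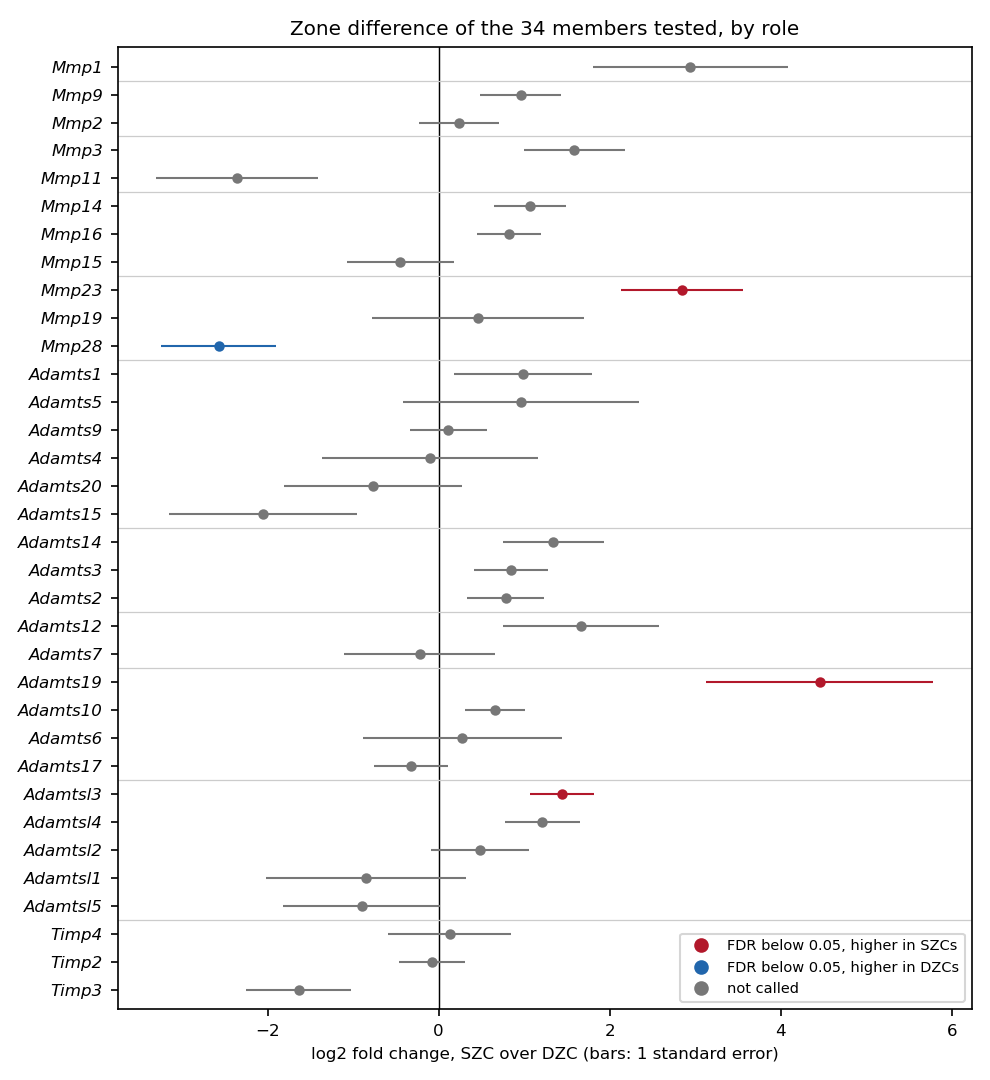
LogFC of SZCs over DZCs for the 34 tested members, with bars of 1 standard error, grouped by role. Red points were called higher in SZCs, the blue point was called higher in DZCs and grey points were not called. *Adamts19* has the highest value, 4.45, and *Mmp28* the lowest, -2.57.

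Of the 3 collagenases, *Mmp1* was the only member that passed the filter. It had 12 and 16 counts in SZCs against 0 and 3 in DZCs, and its FDR was 0.159 by edgeR's exact test. The 28 counts against 3 give a ratio of 7.92, with an exact 95% counting interval from 2.45 to 40.7. *Mmp8*, the neutrophil collagenase, had 0 counts in all 4 libraries, which allows up to 3 counts in each. *Mmp13*, the collagenase with the strongest action on type II collagen and a known product of hypertrophic chondrocytes, had 468 counts in DZC replicate 2. No read was counted for it in SZC replicate 1, SZC replicate 2 or DZC replicate 1. Its 20.98 CPM in that library is at least 154-fold, 162-fold and 112-fold above what could be shown in these libraries, in that order. The filter removed it because a single library held all its counts. When the filter was omitted, edgeR's exact test gave it an FDR of 0.0780. Of the 11 markers of hypertrophic or bone-forming cells, 7 were tested and 1 of these, *Ihh*, was called, higher in DZCs (0.700% of all genes), with 3 at an unadjusted p below 0.05 and 2 called by DESeq2. Far more counts in DZC replicate 2 than in any other library were seen for *Ibsp* (268, against at most 2), *Alpl* (445, against at most 10), *Sp7* (140, against at most 8) and *Col10a1* (221, against 0 in DZC replicate 1 and 23 and 18 in SZCs). *Runx2* (383, against 120 in DZC replicate 1) and *Spp1* (4477, against 304) were also highest there. *Ihh* went the other way between the DZC libraries, with 194 counts in replicate 1 and 48 in replicate 2, and so did *Phospho1*, with 65 and 49. *Vegfa* was highest in SZC replicate 1, and *Bglap* and *Dmp1* had at most 6 counts in each library. The summed level of the 11 markers, mostly *Spp1* and *Vegfa*, was 404 CPM in DZC replicate 2 and 158 CPM in DZC replicate 1, with 339 and 256 CPM in the SZC libraries. The part of such cells in the level of *Mmp13* was not tested.

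Of the gelatinases, *Mmp2* overlapped between zones and *Mmp9* did not, and neither was called. *Mmp2* (gelatinase A) was at 736 and 900 CPM in SZCs and at 914 and 468 CPM in DZCs. Its logFC was 0.24, with a 95% interval from -0.67 to 1.16 and an FDR of 1. *Mmp9* (gelatinase B), which osteoclasts and macrophages also make, was at 133 and 130 CPM in SZCs and at 42.0 and 93.2 CPM in DZCs. The SZC libraries were close to each other and above both DZC libraries, but the logFC of 0.96 ± 0.47 (SE) had an FDR of 0.519 by edgeR's exact test. It was called without DZC replicate 2, at 1.67 and an FDR of 4.08e-06, and had an FDR of 0.553 without DZC replicate 1 and of 1 without either SZC library. The 10 osteoclast and macrophage markers summed to 23.5 and 61.6 CPM in SZCs and 22.6 and 70.1 CPM in DZCs, and 0 of the 6 tested were called (2 at an unadjusted p below 0.05, 0 called by DESeq2). *Oscar* carried much of that sum in the libraries other than SZC replicate 1, with 74 and 657 counts in SZCs and 209 and 1140 in DZCs. The median logFC of the 6 was 0.92. *Cd14*, *Csf1r*, *Cd163* and *Cd68* had a higher mean in SZCs, *Cd14* without overlap at 12.0 and 16.1 CPM in SZCs and 3.92 and 6.59 CPM in DZCs, and *Acp5* and *Oscar* had a higher mean in DZCs. The part of such cells in the level of *Mmp9* was not tested. *Calcr*, which marks mature osteoclasts, had 0 counts in all 4 libraries, and *Dcstamp* and *Ocstamp* had at most 3 in a library.

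*Mmp3* (stromelysin 1) was at 35.0 and 31.5 CPM in SZCs and at 5.23 and 16.8 CPM in DZCs. The zones did not overlap, and the logFC was 1.59 ± 0.59 (SE, FDR 0.186). The DZC libraries differed from each other by 3.22-fold. *Mmp3* had an FDR of 0.0256 without DZC replicate 1 and of 1.92e-11 without DZC replicate 2, but of 1 without SZC replicate 1 and 0.555 without SZC replicate 2. *Mmp11* (stromelysin 3), which weakly cuts matrix proteins and is made by stromal cells, had 0.409 and 0.776 CPM in SZCs and 1.06 and 5.02 CPM in DZCs. It was higher in both DZC libraries, with a logFC of -2.35 ± 0.95 (SE, FDR 0.308). It was called without DZC replicate 1 (FDR 0.000167). Without DZC replicate 2 the logFC was -0.80 (FDR 0.545), and the FDR was 1 without either SZC library.

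The membrane-type MMPs *Mmp14* and *Mmp16*, which activate proMmp2 at the cell surface, were both higher in the SZC libraries without passing the threshold. *Mmp14*, also a collagenase, was at 486 and 322 CPM in SZCs and at 230 and 156 CPM in DZCs. Its logFC was 1.07 ± 0.42 (SE, FDR 0.234). Scaling by library totals gave 1.42 with an FDR of 0.0235, and leaving out DZC replicate 1 gave 1.38 with an FDR of 0.0134. Without DZC replicate 2 it was 0.83 (FDR 0.0869), and without SZC replicate 1 and replicate 2 the FDR was 1 and 0.755. *Mmp16* was at 486 and 391 CPM in SZCs and at 275 and 221 CPM in DZCs, a logFC of 0.82 ± 0.37 (SE, FDR 0.406). *Mmp15* ran from 2.45 to 5.91 CPM, with overlapping zones. *Mmp17*, *Mmp24* and *Mmp25* were below the filter, with at most 5 counts in each library except for 42 counts of *Mmp17* in DZC replicate 2. In the annotation of ARS-UCD2.0, a different build from that of the counts, *Mmp14* overlaps *Rbm23*, which had between 280 and 753 counts in each library, and reads were counted without strand, so reads shared by the pair cannot be told apart.

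*Mmp19*, a secreted MMP, was at 1.50 and 4.35 CPM in SZCs and at 0.187 and 4.03 CPM in DZCs, with overlapping zones. The remaining MMPs were at or near 0. *Mmp20*, an enzyme of tooth enamel, and *Mmp27* had 0 counts in every library, and *Mmp7* (matrilysin) had 3 counts in each SZC library and 0 in each DZC library. In RefSeq's gene order, *Mmp3* and *Mmp1* are neighbours, and so are *Mmp8*, *Mmp27*, *Mmp20* and *Mmp7* in a row. In the first pair *Mmp3* was counted at least 84 times in every library and *Mmp1* at most 16 times, and in the second row the highest count was 3. As a whole, MMP genes took 0.216% and 0.206% of the counts of the SZC libraries and 0.109% and 0.108% of those of the DZC libraries. The 95% Wilson intervals, which cover counting error only, were 0.213% to 0.218%, 0.204% to 0.208%, 0.108% to 0.111% and 0.107% to 0.109% in the same order. *Mmp2*, *Mmp14* and *Mmp16* together made up between 84.6% and 95.4% of MMP counts. These are shares of raw counts, and a large share of *Col2a1* in a DZC library lowers them. TIMP genes took 0.0832% and 0.153% in SZCs and 0.133% and 0.386% in DZCs, ADAMTS genes 0.0230% and 0.0298% against 0.00725% and 0.0217%, and ADAMTSL genes 0.0584% and 0.0489% against 0.0110% and 0.0289%. The 46 members together took 0.380% and 0.438% in SZCs and 0.260% and 0.545% in DZCs, so that the zones overlapped for TIMP genes and for all members.

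The proteoglycanases among the ADAMTS genes showed no zone difference that passed the test, and their levels varied widely between libraries of one zone. *Adamts5*, the main aggrecanase of mouse cartilage, had 123 and 539 counts in SZCs against 5 and 322 in DZCs, which is 5.59 and 23.2 CPM against 0.311 and 14.4 CPM. The DZC libraries differed by 46.4-fold and the SZC libraries by 4.16-fold, and the zones overlapped. *Adamts5* was the only tested member in which libraries of a zone differed by at least 8-fold with at least 100 counts in the higher one. Among all tested genes with that many counts, 2.06% were so much higher in DZC replicate 2 and 0.0897% in DZC replicate 1, and in SZCs 0.0392% were in replicate 1 and 0.137% in replicate 2. Its logFC of 0.96 had a standard error of 1.38 and an FDR of 0.999, and it ran from -0.40 without SZC replicate 2 to 5.53 without DZC replicate 2.

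*Adamts4*, the other main aggrecanase, followed the library number rather than the zone, with 0.409 and 3.40 CPM in SZCs and 0.435 and 3.63 CPM in DZCs. Each zone thus had 1 low and 1 high library, 8.32-fold apart in SZCs and 8.34-fold apart in DZCs. The logFC was -0.10 (95% interval from -2.57 to 2.37), and turned to 0.024 with library totals. *Adamts1*, which cuts versican and aggrecan and lies next to *Adamts5* in the RefSeq gene order, was at 35.3 and 58.1 CPM in SZCs and 6.66 and 40.4 CPM in DZCs. DZC replicate 1 was the low library here too, 6.07-fold below DZC replicate 2, and the logFC was 0.99 ± 0.80 (SE, FDR 0.908). It was 2.83 (FDR 1.81e-09) without DZC replicate 2 and 0.21 (FDR 0.925) without DZC replicate 1, and the FDR was 1 without either SZC library. *Adamts9* varied less, with 13.9 and 20.6 CPM in SZCs and 12.6 and 19.3 CPM in DZCs and a logFC of 0.11 (95% interval from -0.77 to 0.99). *Adamts15*, another proteoglycanase, was at 0.409 and 0.689 CPM in SZCs and 0.435 and 4.12 CPM in DZCs. Its logFC of -2.05 (FDR 0.693) rested on DZC replicate 2. It was 0.36 (FDR 0.951) without that library and -2.89 (FDR 0.000673) without DZC replicate 1, and the FDR was 1 without either SZC library. Its neighbour *Adamts8* had 2 counts in SZC replicate 1 and 0 counts elsewhere.

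All 6 tested proteoglycanases, *Adamts20* included, had a higher level in replicate 2 than in replicate 1 in both zones, a pattern singled out after the values were seen. Over the 34 members 18 were higher in replicate 2 in both zones, while 32.8% of all tested genes were. In SZCs 23 members were higher in replicate 2 (50.0% of all genes) and in DZCs also 23 (51.0% of all genes). The median log2 ratio of replicate 2 over replicate 1 was 0.42 in SZCs and 0.88 in DZCs for the members, and 0.00 and 0.02 for all tested genes. *Mmp14*, *Mmp16*, *Mmp23*, *Adamts10*, *Adamtsl2* and *Timp4* were lower in replicate 2 in both zones. The labels give no condition that separates replicate 1 from replicate 2.

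**Figure D4:**
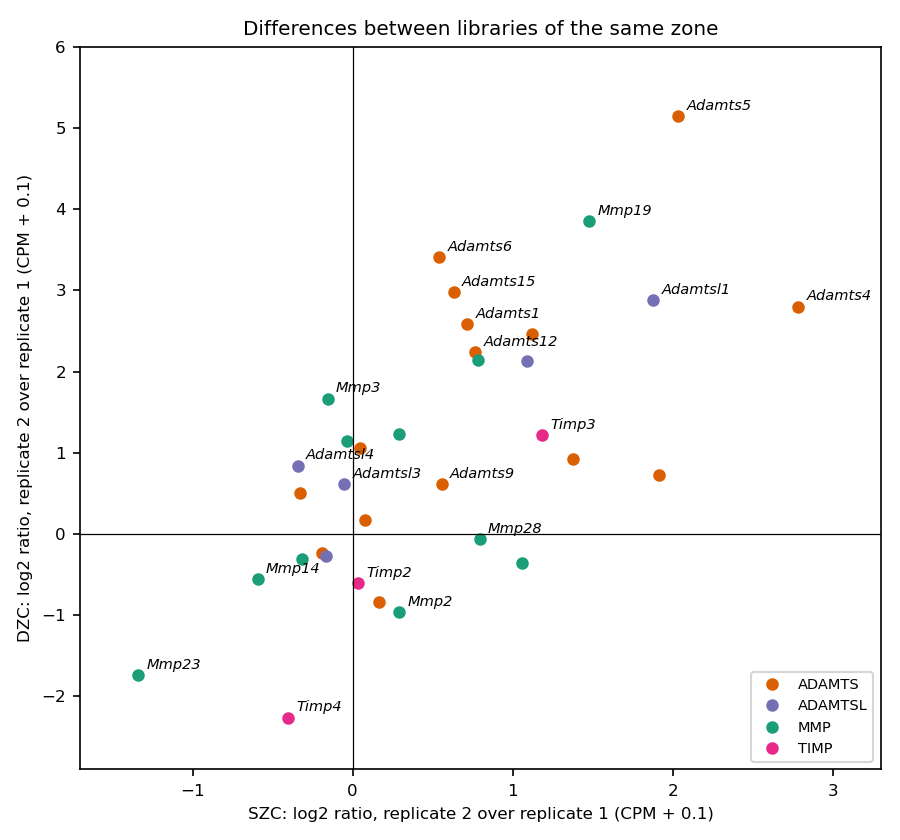
Log2 ratio of replicate 2 over replicate 1 (CPM + 0.1) in SZCs on the horizontal axis and in DZCs on the vertical axis, for the 34 tested members coloured by family. *Adamts5*, *Adamts4*, *Mmp19* and *Adamtsl1* lie far in the upper right, higher in replicate 2 of both zones, and *Mmp23* and *Timp4* lie in the lower left.

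The procollagen N-proteinases *Adamts2*, *Adamts3* and *Adamts14* had higher levels in both SZC libraries than in either DZC library (21.0% of all tested genes did), and none was called by edgeR's exact test or by DESeq2. *Adamts14* alone had an unadjusted p below 0.05 in the former. *Adamts2* was at 78.0 and 80.4 CPM in SZCs and at 29.7 and 62.2 CPM in DZCs, a logFC of 0.78 ± 0.45 (SE, FDR 0.687). It was 1.44 (FDR 6.97e-05) without DZC replicate 2 and 0.35 (FDR 0.735) without DZC replicate 1, and the FDR was 1 without either SZC library. *Adamts3*, which acts on procollagen II and on VEGF-C, was at 12.8 and 13.5 CPM against 6.84 and 7.71 CPM. The logFC was 0.85 ± 0.43 (SE, FDR 0.558), and replicates differed by at most 1.13-fold. *Adamts14* was at 6.18 and 6.94 CPM in SZCs and at 3.36 and 1.84 CPM in DZCs, with a logFC of 1.34 ± 0.59 (SE, FDR 0.384). Without DZC replicate 1 *Adamts14* was called, at 1.83 and an FDR of 0.0168. Without DZC replicate 2 it was 0.99 (FDR 0.175), and the FDR was 1 without either SZC library. Of the enzymes that cut cartilage oligomeric matrix protein, *Adamts7* overlapped between zones (0.636 and 2.67 CPM in SZCs, 1.43 and 2.42 CPM in DZCs). *Adamts12* was at 2.54 and 4.39 CPM in SZCs and at 0.311 and 1.84 CPM in DZCs, a logFC of 1.67 ± 0.91 (SE, FDR 0.681). It was 3.48 (FDR 0.00157) without DZC replicate 2 and 0.92 (FDR 0.640) without DZC replicate 1, and the FDR was 1 without either SZC library.

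Among the other ADAMTS genes, *Adamts10*, which binds fibrillin microfibrils, was at 36.7 and 32.1 CPM in SZCs and at 23.6 and 20.1 CPM in DZCs. The zones did not overlap, and replicates differed by at most 1.17-fold, but the logFC of 0.66 ± 0.35 (SE) had an FDR of 0.623. *Adamts17*, mutated in a syndrome of short stature and eye defects, was at 13.3 and 10.6 CPM in SZCs and at 12.3 and 17.6 CPM in DZCs, with overlapping zones. *Adamts6* had 2 counts in DZC replicate 1 and between 26 and 51 in the other libraries. Its gene overlaps *Cwc27*, which was counted between 297 and 490 times in every library. *Adamts13*, *Adamts16* and *Adamts18* were not tested, with at most 15 counts in each library.

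All 5 ADAMTSL genes were tested. Besides *Adamtsl3*, *Adamtsl4*, which binds fibrillin and is mutated in lens dislocation, had higher levels in SZCs. It had 10277 and 8542 counts in SZCs against 2075 and 5162 in DZCs, which is 467 and 368 CPM against 129 and 231 CPM. The zones did not overlap, and the logFC was 1.21 ± 0.44 (SE), with an FDR of 0.149 by edgeR's exact test. Without DZC replicate 2 it was 1.71 with an FDR of 2.57e-05, and without DZC replicate 1 it was 0.85 with an FDR of 0.176. Without SZC replicate 1 and replicate 2 the FDR was 1 and 0.720. *Adamtsl4* made up between 85.6% and 88.3% of the ADAMTSL counts of each library. *Adamtsl2*, also a microfibril protein, was at 3.68 and 3.27 CPM in SZCs and at 2.74 and 2.24 CPM in DZCs, a logFC of 0.48 (FDR 0.990). *Adamtsl1* and *Adamtsl5* had at most 4.98 CPM, and their zones overlapped. DZC replicate 2 was the highest library for each of them. *Adamtsl3* and *Adamtsl1* overlap *Sh3gl3* and *Saxo1*, which had at most 29 and 2 counts.

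Over all tested genes, 21.0% had both SZC libraries above both DZC libraries and 20.5% had the reverse. Of the members, 15 had the first order and 3 the second, with *Mmp28*, *Mmp11* and *Timp3* forming the latter. With a logFC of more than 1 in size as well, 9 members were in the first class (7.65% of all genes) and 3 in the second (2.99% of all genes). The first class held *Mmp1*, *Mmp3*, *Mmp14*, *Mmp23*, *Adamts12*, *Adamts14*, *Adamts19*, *Adamtsl3* and *Adamtsl4*. Filtered members are not in these counts.

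None of the 3 TIMP genes was called by edgeR's exact test or by DESeq2, and 1 of them, *Timp3*, had an unadjusted p below 0.05 in the former. *Timp3* was at 474 and 1075 CPM in SZCs and at 1447 and 3360 CPM in DZCs, or 10426, 24942, 23255 and 74962 counts in the same order. Both DZC libraries lay above both SZC libraries, and replicates differed by 2.27-fold in SZCs and by 2.32-fold in DZCs. The logFC was -1.63 ± 0.61 (SE, FDR 0.196). Without DZC replicate 1 it was -2.11 (FDR 0.000355) and without DZC replicate 2 it was -0.88 (FDR 0.145). Without SZC replicate 1 it was -1.16 (FDR 1) and without SZC replicate 2 it was -2.34 (FDR 0.275). *Timp3* made up 62.9% and 79.7% of the counts of these 3 TIMP genes in SZCs and 80.0% and 94.1% in DZCs. *Timp2*, which binds Mmp14 and proMmp2 in a complex, was at 234 and 240 CPM in SZCs and at 301 and 198 CPM in DZCs. Its logFC was -0.07 with a 95% interval from -0.83 to 0.69, and it was 0.29 with library totals. *Timp4* was at 45.3 and 34.3 CPM in SZCs and at 60.3 and 12.5 CPM in DZCs. The DZC libraries of *Timp4* lay on either side of the SZC libraries, 4.84-fold apart. Its logFC of 0.13 became 1.68 (FDR 4.45e-05) without DZC replicate 1 and -0.58 (FDR 0.154) without DZC replicate 2, and the FDR was 1 without either SZC library. *Timp3* and *Timp4* lie within synapsin genes. *Syn3* had at most 7 counts in each library, and *Syn2* had between 53 and 122.

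Ratios of a protease to an inhibitor within a library do not depend on how libraries are scaled, and the difference of a ratio between zones does not depend on transcript length. The log2 ratio of *Mmp14* to *Timp2* was 1.06 and 0.43 in SZCs and -0.39 and -0.35 in DZCs. SZCs thus held more *Mmp14* per *Timp2* by 1.11 on the log2 scale, without overlap. The log2 ratio of *Mmp16* to *Timp2* differed by 0.87 and that of *Mmp9* to *Timp2* by 1.11 in the same direction. For *Mmp2* to *Timp2* the difference was 0.36, with 1.65 and 1.91 in SZCs and 1.60 and 1.24 in DZCs. The ratio of *Adamts1* to *Timp3* was -3.75 and -4.21 in SZCs and -7.76 and -6.38 in DZCs, a difference of 3.09. *Adamts5* to *Timp3* was -6.41 and -5.53 in SZCs and -12.2 and -7.86 in DZCs, a difference of 4.05, where the former DZC value rests on 5 counts of *Adamts5*. *Adamts9* to *Timp3* differed by 1.75 and *Mmp14* to *Timp3* by 2.69, again without overlap. *Adamts4* to *Timp3* overlapped between zones, with -10.2 and -8.30 in SZCs and -11.7 and -9.85 in DZCs. In 8 of the 9 ratios computed the SZC values lay above the DZC values. Over all tested genes, the counts relative to *Timp2* had that order in 15.8%, and those relative to *Timp3* had it in 70.8%, since *Timp3* itself was higher in both DZC libraries. The logFC of *Timp3*, -1.63, is part of each difference in a ratio to *Timp3*, and *Adamts9* itself had a logFC of 0.11. The ratios share 2 inhibitors and 4 libraries and are not independent. By exact permutation of the zone labels (two-sided), p was 0.333 for each of the 8, the smallest p that 2 libraries against 2 allow, and 0.667 for *Adamts4* to *Timp3*.

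**Figure D5:**
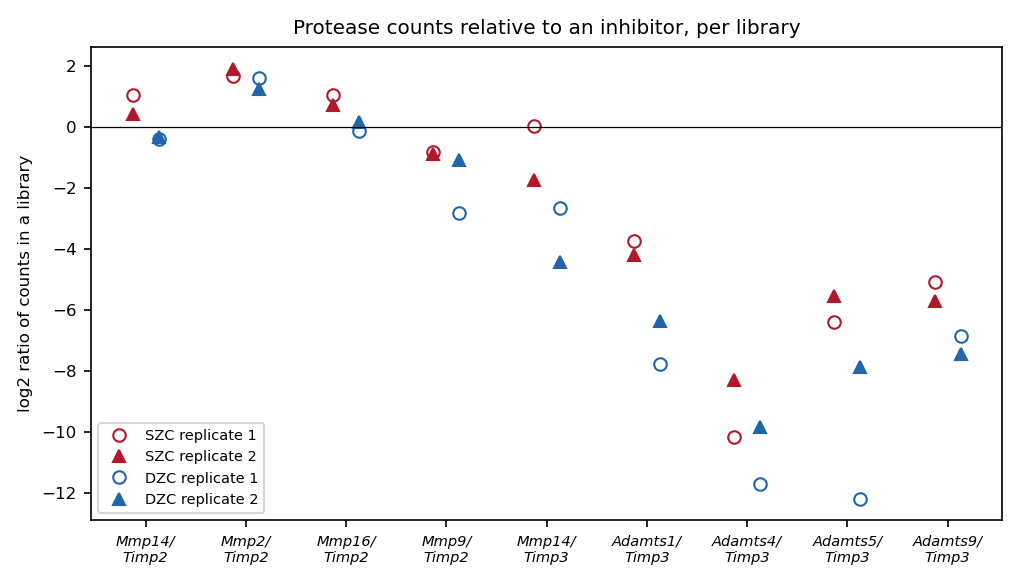
Log2 ratio of protease counts to inhibitor counts within each library, for 4 proteases relative to *Timp2* and 5 relative to *Timp3*. Red marks SZCs, blue DZCs, open circles replicate 1 and triangles replicate 2. SZC points lie above DZC points for each ratio except *Adamts4* to *Timp3*, and the *Adamts5* to *Timp3* point of DZC replicate 1 lies at -12.2.

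Other genes of extracellular proteolysis were read from the same fit. In a list of 6 genes that holds the ADAMTSL relatives *Papln* and *Thsd4* with microfibril genes and *Ism1*, 4 were called higher in SZCs (2.23% of all genes). *Papln*, which encodes papilin, an ADAMTS-like matrix protein, had a logFC of 4.46 ± 0.59 (SE, FDR 3.26e-09). *Thsd4*, also called ADAMTSL6, had one of 3.73 ± 0.38 (SE). *Fbn2* (fibrillin 2), a microfibril component, was at 3.07 ± 0.87 (SE, FDR 0.0463), close to the limit. It had 100 and 78.7 CPM in SZCs and 2.24 and 19.0 CPM in DZCs. *Ism1* (isthmin 1), a secreted protein with a thrombospondin repeat, was at 1.60 ± 0.42 (SE, FDR 0.0106). *Fbn1* (fibrillin 1) and *Ltbp2*, a latent TGF-β binding protein, were not called. Among tolloid and other matrix proteases 2 of 8 were called, both higher in SZCs (2.23% of all genes). *Mme* (neprilysin) was at 4.64 ± 0.71 (SE, FDR 3.58e-06) and *Pappa*, which cuts IGF binding proteins, at 1.65 ± 0.46 (SE, FDR 0.0211). Of the 8, 3 had an unadjusted p below 0.05 by edgeR's exact test, and DESeq2 called 2. Of the 4 convertases that activate proenzymes, *Pcsk6* alone was called, higher in SZCs (2.23% of all genes), at 2.74 ± 0.45 (SE). Of the 4, 1 had an unadjusted p below 0.05 by edgeR's exact test, and DESeq2 called 1. *Furin*, which activates membrane-type MMPs, was at 286 and 267 CPM in SZCs and at 373 and 201 CPM in DZCs. Among 7 other inhibitors and binding proteins 2 were called higher in SZCs (2.23% of all genes), and neither is a known MMP inhibitor. *Pcolce2*, an enhancer of procollagen C-proteinase, was at 1.82 ± 0.33 (SE, FDR 2.14e-05). *Serping1*, a serpin of the complement system, was at 1.94 ± 0.46 (SE, FDR 0.00356). Of the 7, 3 had an unadjusted p below 0.05 by edgeR's exact test, and DESeq2 called 3. *Reck*, a membrane-anchored inhibitor of MMPs, had a logFC of -0.61 ± 0.41 (SE, FDR 0.804). In the plasminogen activation system 0 of 5 tested genes were called, with 1 at an unadjusted p below 0.05 and 0 called by DESeq2. Among the ADAM proteases 0 of 9 were called (2 at an unadjusted p below 0.05, 0 by DESeq2), and among cathepsins 0 of 8 (2 at that p, 1 called by DESeq2).

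Of 16 matrix genes that these enzymes act on or lie beside, 3 were called higher in SZCs (2.23% of all genes) and 1 higher in DZCs (0.700% of all genes). At an unadjusted p below 0.05 were 9 of them (9.09% of all genes), and DESeq2 called 6 (3.09% of all genes). The median logFC of the 16 was -0.79. *Col2a1*, with a logFC of -1.91 ± 0.59 (SE, FDR 0.0658), *Col9a1*, *Col9a2*, *Col9a3*, *Col11a1*, *Col11a2* and *Comp* had both DZC libraries above both SZC libraries (20.5% of all genes) without being called. *Vcan* (versican), a substrate of *Adamts1*, *Adamts5* and *Adamts9* products, was at 2188 and 1844 CPM in SZCs and at 44.2 and 256 CPM in DZCs. Its logFC was 3.75 ± 0.78 (SE, FDR 0.00211). *Dcn* (decorin) had a logFC of 2.15 and *Prg4* one of 6.08, and *Matn3* (matrilin 3) had one of -2.04. *Acan* (aggrecan), the substrate of aggrecanases, overlapped between the zones with a logFC of -0.58 ± 0.59 (SE, FDR 0.966).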

How the data were processed

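RNA of 2 SZC and 2 DZC libraries was read from a single end (75 bp). Per the study's methods, the authors aligned the reads to Ensembl build UMD 3.1 with STAR 2.5.2b, a version also given in the submitters' processing notes, counted them for an unstranded library and deposited raw counts per gene. A table of the authors' own comparison (log2 fold changes and FDR values for 320 genes) was read only to fill blank gene names, which added 0 members. ATAC-Seq samples were not analysed here.

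Columns were matched to samples by name. Libraries differed within zones by more than sampling noise (chi-square per degree of freedom 61.9 for SZCs and 303 for DZCs), so none was counted as a duplicate. The p-values measure the spread between these libraries. In R 4.3.3, edgeR 4.0.16 was used with its default filter, TMM factors (1.11, 1.14, 0.735 and 1.08 for SZC and DZC replicates 1 and 2), default dispersions and the exact test at an FDR of 0.05, as the study's methods state for the test. Standard errors and 95% intervals follow from the gene-wise dispersion of the negative binomial model. Levels are TMM-normalized CPM. Alternatives were the quasi-likelihood test without and with the replicate number as a block, DESeq2 1.42.0, omission of the filter, a stricter one (above 1 CPM in 2 libraries or more), the size factors of DESeq2, library totals, another dispersion estimator, and each library left out. The scripts were tested on simulated counts.

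Members, lists and the rule for named genes were chosen with earlier results of these data known. Values in every library are given for called members, the 3 TIMPs analysed, the most abundant members of each family, the main collagenases, gelatinases and aggrecanases, and members that separate by zone or differ strongly within a zone. All 46 symbols were found in the RefSeq table (ARS-UCD2.0), used only for gene order and overlap. Transcript lengths and sequences were not used here.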

Additional observations from a re-analysis of the deposited data

How the results depend on the processing

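The 4 member calls (3 higher in SZCs, 1 higher in DZCs) changed with the test. edgeR's quasi-likelihood test called 0 of all genes, and so 0 members, 0 higher in SZCs and 0 higher in DZCs. Blocked by replicate number, the same test called 2 members (*Mmp23*, FDR 0.00265, and *Adamtsl3*, FDR 0.0337), 0 of them higher in DZCs, and 347 genes in all (2.70%). *Adamts19* and *Mmp28* had an FDR of 0.0561 and 0.0514 with the block. Under it 19 members had an unadjusted p below 0.05 (12.8% of all genes), *Adamts5* had a log2 fold change of 1.95 (FDR 0.239) against 0.96 and *Adamts1* one of 1.43 (FDR 0.156) against 0.99. Library pairs of the same number deviated together, with a correlation of 0.42 over the tested genes, but the labels do not say what a number marks. With library totals, 0 members were higher in DZCs, *Mmp14* was called, and the median of all genes shifted by 0.30 on the log2 scale. With that scaling 3 log2 fold changes near 0 turned, to 0.024 for *Adamts4*, 0.028 for *Adamts7* and 0.29 for *Timp2*. The cause of these changes was not tested. Under DESeq2, no filter, the filter on CPM, DESeq2 size factors and the other dispersion estimator, 3 or 4 members were called. With each library left out in turn, the count over all genes ran from 68 to 2768, of members from 0 to 14, of members higher in SZCs from 0 to 13 and of members higher in DZCs from 0 to 4. The median log2 fold change of the tested members, 0.47, ran from 0.20 to 0.97 in these fits. It was 0.74 with the block and 0.73 with library totals. Over the fits that leave out a library the log2 fold change changed sign in 13 of the 34 tested members, *Adamts4* (-2.31 to 2.14), *Adamts5* (-0.40 to 5.53), *Adamts7* (-1.59 to 0.47), *Adamts9* (-0.19 to 0.48), *Adamts15* (-2.89 to 0.36), *Mmp2* (-0.14 to 0.81), *Timp2* (-0.32 to 0.26), *Timp4* (-0.58 to 1.68), *Adamts6* (-0.63 to 3.53), *Adamts20* (-1.54 to 1.21), *Adamtsl1* (-2.23 to 1.47), *Adamtsl5* (-1.61 to 0.64) and *Mmp19* (-0.50 to 3.95). Members with fewer than about 100 counts are limited by counting as well as by the number of libraries.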
